A study of Mus musculus with 4 samples.

Results

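Histamine is made, sensed and removed by a small group of proteins, and 5 of their genes are described here across the hippocampus of mice that differ in genotype and age: the receptors Hrh1, Hrh2 and Hrh3, the synthesising enzyme Hdc and the inactivating enzyme Hnmt. They were chosen by the role of their products, after Hrh3 had stood out in the difference between genotypes on these same arrays. They are 5 of 37325 genes on the array, read by 10 of its 56605 probes, and the symbols were those of the array's design. RNA came from the hippocampus of wild-type (WT) mice and of mice with a heterozygous knockout of Rp58 (hetero-KO), a zinc finger repressor of transcription whose current symbol is Zbtb18, at 4 and at 18 months; the titles of the older groups give 1.5 years, and their descriptions 12 to 18 months. Each of the 4 groups was a mixture of 3 total RNA samples put on 1 array, so no comparison of a pair of arrays has a replicate. The sources used here do not give the strain, the sex or the deleted part of the gene, and the labels name no treatment.

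In the brain, histamine is released by neurons whose cell bodies lie in the tuberomammillary nucleus of the hypothalamus and whose axons reach most of the forebrain, the hippocampus included; mast cells are another source. The H1 and H2 receptors are mainly excitatory on neurons and signal through Gq and phospholipase C and through Gs and adenylyl cyclase. The H3 receptor couples to Gi and Go and acts as an autoreceptor on histamine axons and as a heteroreceptor on the terminals of other neurons, where it lowers transmitter release. Hrh3 is also widely made by neurons that receive histamine, and its RNA is known to be abundant in the medium spiny neurons of the striatum. Hdc makes histamine from histidine, and Hnmt methylates it inside cells, the main route of its inactivation in the brain.

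All probes were 60 bases long. Both Hrh3 probes were designed on the same transcript, on the minus strand of chromosome 2 (mm9), the first at chr2:179835804-179835863 and the second nearer the transcript's 3′ end at chr2:179834245-179834304. They lie 1559 bases apart in the transcript and 1559 bases apart in the genome, so no intron separates them. The probes of Hrh3 and Hdc that carried the differences between genotypes are shown 5′ to 3′, whole for probe 1 and as the first 30 bases for probe 2, with no base marked.
Hrh3 probe 1: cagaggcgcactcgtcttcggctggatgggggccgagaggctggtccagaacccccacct
Hrh3 probe 2: acacctgggaggaatgctttgcctcgtcct
Hdc probe 1: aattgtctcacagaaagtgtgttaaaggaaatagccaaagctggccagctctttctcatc
Hdc probe 2: ttgatcataacctcacagggtcttcgtgat
Hrh3 probe 1 has 68.3% G and C and Hrh3 probe 2 has 55.0%, against 41.7% in both of these Hdc probes. The Hdc probes lie at chr2:126420357-126420416 and chr2:126419516-126419575, minus strand, 841 bases apart in transcript and genome alike. The 2 probes of Hrh1 (chr6:114430763-114430822 and chr6:114432416-114432475, plus strand) and of Hnmt (chr2:23859071-23859130 and chr2:23858460-23858519, minus strand) likewise have the same spacing in transcript and genome, 1653 and 611 bases. Hrh2 has 1 probe, at chr13:54310290-54310349 on the plus strand. Another Hdc probe, probe 3, was designed on another transcript and lies 5′ of the others at chr2:126426030-126426089. Exon and UTR annotation of this build was not used here.

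A level here is the processed spot signal divided by its array's 75th percentile, and the levels of a probe are compared between arrays; for a list, the levels of its genes are summed on each array. The 75th percentile lay between 1714 and 2111 on the 4 arrays, and 77.9% to 81.9% of spots passed the scanner software's test of being well above background. Of the 10 probes, 9 were well above background on all 4 arrays. The Zbtb18 probe read 17.5 (WT) and 15.2 (hetero-KO) at 4 months, then 18.9 and 21.4 at 18 months, so at 18 months it was not lower in hetero-KO; because the deleted part is not known, a probe outside it checks nothing, and every direction between genotypes rests on the labels. The dentate granule cell gene Prox1 was well above background on all arrays (levels 1.92 to 2.27), and so was Ttr of the choroid plexus (61.7 to 88.7). The Y-linked gene Eif2s3y was at background on the hetero-KO array of 4 months and had levels of 0.673 (WT at 4 months), 1.30 (WT at 18 months) and 1.33 (hetero-KO at 18 months). The sex makeup of the pools thus moved with the 4-month comparison and with both age comparisons, and its part in the results was not tested.

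Hrh3 was about 2-fold higher in hetero-KO than in WT at both ages. By the brighter probe 2, the 4-month pools had levels of 3.88 (WT) and 7.90 (hetero-KO), and the 18-month pools 2.96 (WT) and 6.08 (hetero-KO). Both hetero-KO arrays were above both WT arrays. The fold was 2.04 at 4 months and 2.05 at 18 months, that is log2 differences of 1.03 and 1.04, each with a spot error of 0.20. The spot error is the error the scanner software gives for both spots; it covers the reading of a spot and not the spread among mice.

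Probe 1 of Hrh3 was dim and moved the same way. Its 4-month levels were 0.0202 (WT) and 0.0308 (hetero-KO) and its 18-month levels 0.0145 and 0.0232, so within each age the hetero-KO array was the higher. The log2 differences were 0.61 (spot error 0.24) and 0.68 (spot error 0.29), smaller than those of probe 2. With the mean of both probes in place of the brighter one, the difference was 0.82 at 4 months.

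Because Hrh3 was picked for this contrast, its difference between genotypes is given as a description, with no test. Over both ages, Hrh3 was 2.04-fold higher in hetero-KO (log2 1.03 ± 0.04, SE of an additive limma fit of genotype and age to 4 arrays), with 0.0103% of 29071 genes past that fit's threshold in this direction. It was 1 of 14 genes of 27380 at least 2-fold higher in hetero-KO at both ages (0.0511%), and 13th of these by the smaller of its differences. As the gene was picked for these values, nothing is read from its place among them. Among all genes measured on both arrays of an age, it ranked 183rd from the highest at 4 months and 138th at 18 months. At least 2-fold differences in either direction were found for 1.32% of genes at 4 months and 1.14% at 18 months.

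Hrh1, the H1 receptor gene, had 4-month levels of 0.301 (WT) and 0.376 (hetero-KO) by probe 2, and 18-month levels of 0.323 and 0.269. The hetero-KO array was thus the higher at 4 months and the lower at 18 months, by log2 differences of 0.32 and −0.26 with a spot error of 0.20 each. Probe 1 of Hrh1 stood well above background on a single array, hetero-KO at 4 months, with a level of 0.00964. WT of that age read 0.0065, not well above background. The log2 difference was 0.58 with a spot error of 0.465, and no fold is read from it.

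Hrh2, the H2 receptor gene, was close to the background on all arrays. It read 0.00820 (WT) and 0.0140 (hetero-KO) at 4 months, then 0.0121 and 0.0110 at 18 months. WT at 4 months was the lowest array and hetero-KO at 4 months the highest, with both 18-month arrays between them. The log2 difference between genotypes was 0.78 (spot error 0.33) at 4 months and −0.14 (spot error 0.37) at 18 months. With normexp background correction the 4-month difference was 0.18, within the spot error.

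**Figure D1:**
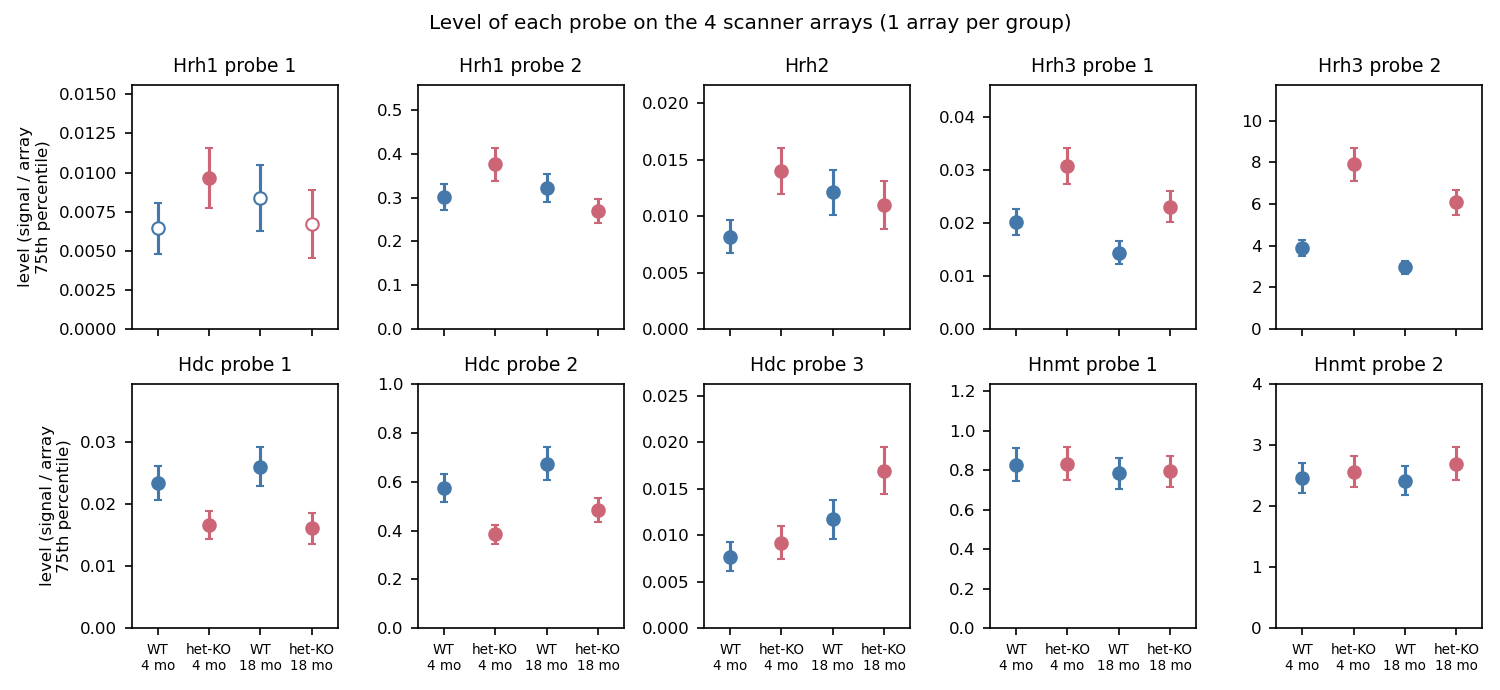
Level of each of the 10 probes (signal over the array's 75th percentile, linear axis from 0, a scale of its own per probe) on the 4 arrays, WT in blue and hetero-KO in red; bars are the spot error and open points were not well above background. Both Hrh3 probes are higher in hetero-KO at each age, Hdc probes 1 and 2 are lower, and both Hnmt probes are nearly level.

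Hdc, the enzyme that makes histamine, was lower in hetero-KO at both ages by its probes 1 and 2. By probe 2, the 4-month levels were 0.574 (WT) and 0.385 (hetero-KO), and those of 18 months 0.675 and 0.485. Both hetero-KO arrays were below both WT arrays, by 1.49-fold at 4 months and 1.39-fold at 18 months (log2 −0.58 and −0.47, spot error 0.20 each). Over both ages, Hdc was 1.44-fold lower in hetero-KO (log2 −0.53 ± 0.07, SE of the additive fit). This too is a description, since the genes were grouped with Hrh3 after this contrast had been seen.

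The dim probe 1 of Hdc read 0.0233 (WT) and 0.0166 (hetero-KO) at 4 months, then 0.0260 and 0.0161 at 18 months, so again both hetero-KO arrays were lower (log2 −0.49 and −0.69, spot errors 0.26 and 0.29). Probe 3, on the other transcript, went the opposite way, with levels of 0.00769 and 0.00922 at 4 months, then 0.0117 and 0.0169 at 18 months. Its log2 differences were 0.26 (spot error 0.40) and 0.53 (spot error 0.34). With the mean of the 3 probes, the Hdc difference was −0.27 at 4 months and −0.21 at 18 months.

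Hnmt, the methyltransferase that inactivates histamine, differed little between the arrays. Probe 2 read 2.46 (WT) and 2.56 (hetero-KO) at 4 months, then 2.41 and 2.69 at 18 months. The log2 differences, 0.06 and 0.16, were within the spot error of 0.20. Probe 1 had levels of 0.829, 0.835, 0.785 and 0.795 in the same order, with differences of 0.01 and 0.02.

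**Figure D2:**
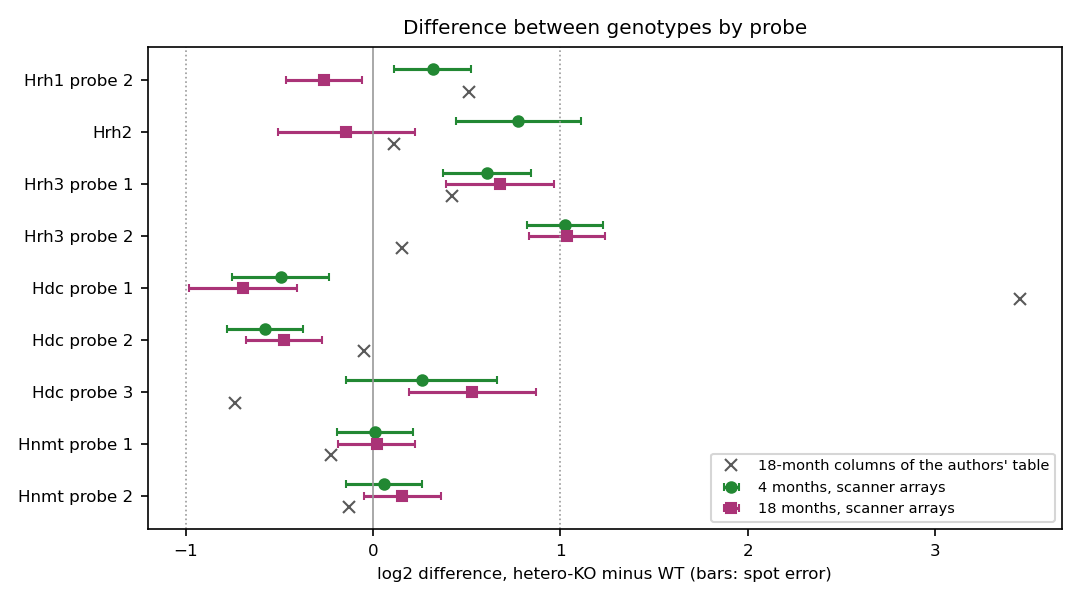
Log2 difference of hetero-KO minus WT for the 9 probes measured on all arrays, at 4 months (green) and 18 months (purple) on the scanner arrays with spot errors as bars, and between the 18-month columns of the authors' deposited table (crosses). Dotted lines mark 2-fold; on the scanner arrays Hrh3 probe 2 lies past it at both ages, at 1.03 and 1.04, and in the table's columns at 0.16.

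Among the 5 genes, 1 (Hrh3) was at least 2-fold apart between genotypes at 4 months and 1 (Hrh3 again) at 18 months, and none was at least 2-fold apart between ages in WT or in hetero-KO. Over all genes, 1.6% were at least 2-fold apart between ages in WT and 2.2% in hetero-KO. The age difference over both genotypes was tested across all 29071 genes with limma and Benjamini-Hochberg adjustment at 0.05; 0.643% of genes fell with age and 1.46% rose. Without the filter on dim probes, and likewise without the variance trend, limma gave 0 genes past the threshold in either direction (at an unadjusted p under 0.05, 5039 higher and 2074 lower without the filter, 2775 and 1743 without the trend), so each age call named here is lost under both settings.

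Hrh3 fell with age on this test. By probe 2, it was lower at 18 than at 4 months by 0.39 on the log2 scale in WT and by 0.38 in hetero-KO, and by probe 1 by 0.48 and 0.41. Over both genotypes it was 1.31-fold lower (log2 −0.38 ± 0.04 SE, limma adjusted p = 0.0442 over all genes), and 2 of 2 genotypes showed the direction. Hrh3 had been picked from a fit that gives the age test its error as well, so this p is not independent of that choice. The genotype difference at 18 months exceeded that at 4 months by 0.01, a value with no test. The call did not hold without the variance trend (adjusted p = 0.319), without the filter on dim probes (0.146), with the mean of both probes (0.117) or with genotype left out of the fit (0.720); with every probe as a feature, probe 2 gave 0.048 and probe 1 gave 0.256 (log2 −0.45 ± 0.18). The 1 residual degree of freedom is the change of the genotype difference between ages, which limma weighs with the residuals of other genes. No group has a replicate pool, so the SE and p measure neither the spread among pools of a group nor that among mice. The SE of 0.04 is also below the spot error of 0.20 for a pair of arrays.

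No other gene of the 5 passed the age test. Hdc was higher at 18 months by 0.23 (WT) and 0.33 (hetero-KO) by probe 2 (over both 0.28 ± 0.07 SE, limma adjusted p = 0.0986). The dim Hdc probes had age differences of 0.16 and −0.05 (probe 1) and of 0.61 and 0.88 (probe 3), in WT and hetero-KO. Hrh1 had age differences of 0.10 (WT) and −0.48 (hetero-KO; limma adjusted p = 0.510 over both), and Hrh2 of 0.56 and −0.35 (limma adjusted p = 0.885), of which the second was −0.01 with normexp background correction. Hnmt had −0.03 and 0.07 (over both 0.02 ± 0.05 SE, limma adjusted p = 0.823).

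**Figure D3:**
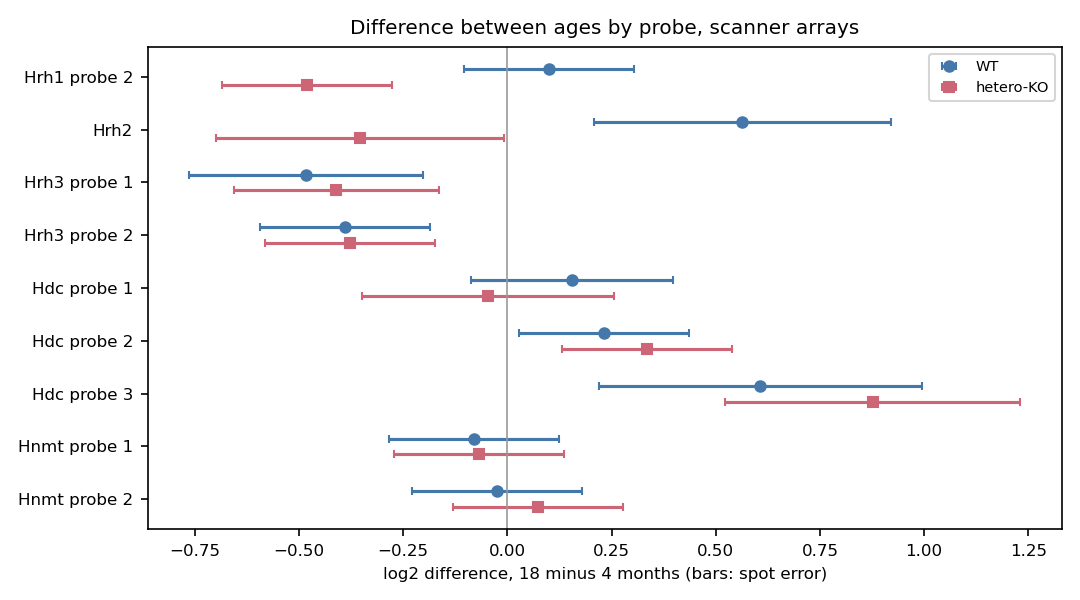
Log2 difference of 18 minus 4 months for the same 9 probes in WT (blue circles) and hetero-KO (red squares), with spot errors as bars. Both Hrh3 probes lie below 0 in both genotypes, between −0.38 and −0.48. Hrh1 probe 2, Hrh2, Hdc probe 1 and Hnmt probe 2 differ in sign between the genotypes. The last 2 are within the spot errors in both genotypes, and Hrh1 probe 2 is so in WT (0.10, spot error 0.20).

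The authors' deposited table of all samples gave another picture at 18 months. Its 4-month columns equal the scanner arrays within 1%, but those of 18 months equal no scanner file, with correlations of log2 values across probes of 0.974 to 0.982, and which RNA they hold is unknown. In the authors' deposited table, Hrh3 probe 2 stood at 10.1 (WT) and 11.2 (hetero-KO) at 18 months, above both 4-month columns (3.86 and 7.85). The genotype difference between these 18-month columns was 0.16 for probe 2 and 0.42 for probe 1, against 1.04 and 0.68 on the scanner arrays.

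In the same deposited columns at 18 months, Hrh1 probe 2 read 1.57 (WT) and 2.25 (hetero-KO), against 0.299 and 0.373 at 4 months. Hdc probe 2 read 0.108 and 0.105, against 0.571 and 0.383. Hrh1 was thus 5.26-fold and 6.03-fold higher than at 4 months, and Hdc 5.28-fold and 3.66-fold lower. Hrh2 read 0.0173 and 0.0187, against 0.00815 and 0.0140, and Hrh1 probe 1 read 0.0237 and 0.0351, against 0.00642 and 0.00958. Hnmt probe 2, at 2.75 and 2.52, stayed near its 4-month values of 2.44 and 2.55, as did Hnmt probe 1 (0.898 and 0.768, against 0.824 and 0.829).

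The dim Hdc probes gave no steady reading in these columns: in the deposited table probe 1 read 0.00132 in WT and 0.0145 in hetero-KO, and probe 3 read 0.00984 and 0.00590. The first of these is under the lowest level well above background on any scanner array (0.00576 to 0.00830), and no fold is read from it. Marker genes differed between the table's columns as well. From WT at 4 months to WT at 18 months, the summed value of 21 choroid plexus markers went from 191 to 43.0, that of 14 neocortex markers from 33.9 to 54.8, that of 19 striatum markers from 35.6 to 92.1 and that of 23 hippocampal principal neuron markers from 114 to 81.5. On the scanner arrays, the hippocampal sum lay between 105 and 115. The part of these markers in the table's Hrh1, Hrh3 and Hdc values was not tested.

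Markers of other tissue moved with some of these results on the scanner arrays, where a larger share of a cell type and more RNA per cell cannot be told apart. Striatum markers moved with Hrh3 at 4 months. All 19 measured striatum markers were higher in hetero-KO at 4 months (median 0.86, against −0.02 over all genes), with the adenosine receptor Adora2a higher by 2.27. Of the 19, 9 were at least 2-fold higher, against 1.32% of all genes at least 2-fold apart in either direction. The summed level of the 19 markers was 35.8 on the WT array and 72.9 on the hetero-KO array, 2.04-fold. Hrh3 was 2.04-fold higher by probe 2 and 1.52-fold by probe 1. The log2 differences of single striatum markers ran from 0.05 to 2.57.

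At 18 months, Hrh3 was 2.05-fold higher in hetero-KO while the summed striatum levels were 35.7 (WT) and 37.7 (hetero-KO), 1.06-fold. There 9 of 18 striatum markers were higher and 9 lower (median −0.04, against −0.01 over all genes), and Six3, a homeobox gene, was lower in hetero-KO by 1.37, whereas Adora2a and Syndig1l were higher by 0.87 and 0.82. With age, the striatum sum of hetero-KO went to 0.517 times its 4-month level, and Hrh3 probe 2 was lower by 0.38 on the log2 scale. In WT, Hrh3 was lower by 0.39; the striatum sum of WT was 0.998 times its 4-month level, while 15 of the 19 markers were lower at 18 months and 4 higher (median −0.26, against 0.04 over all genes). The part of these markers in the Hrh3 age difference was not tested. Of the 19 striatum markers, 1 fell with age on the test over both genotypes, against 0.643% of all genes. This was Scn4b, a sodium channel subunit (log2 −0.98 ± 0.12 SE, limma adjusted p = 0.0479).

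Thalamus and habenula markers moved with age. Of 18 tested (median −1.65, against 0.04 over all genes), 12 fell, against 0.643% of all genes. Among the 12 were the transcription factors Tcf7l2 (log2 −2.12 ± 0.13 SE, limma adjusted p = 0.0211) and Gbx2. The summed level of the 18 markers was 65.8 and 51.8 at 4 months and 29.9 and 27.8 at 18 months, in WT and hetero-KO. Their part in the lower Hrh3 at 18 months was not tested.

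**Figure D4:**
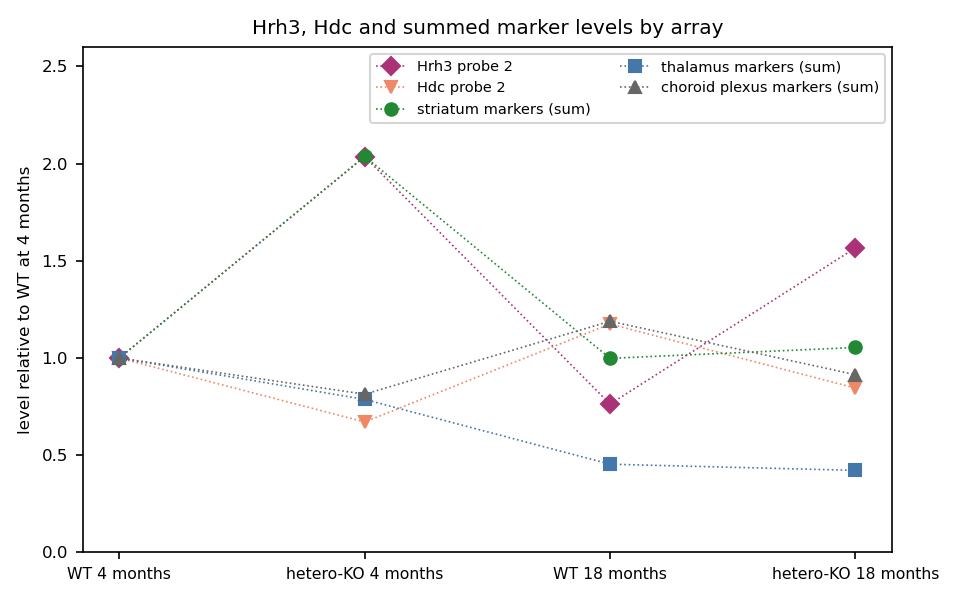
Level of Hrh3 probe 2 and Hdc probe 2 and the summed levels of striatum, thalamus and habenula, and choroid plexus markers on each array, relative to WT at 4 months (linear axis from 0; dotted lines only link the points of 1 series). Hrh3 and the striatum sum are both at 2.04 in hetero-KO at 4 months and separate at 18 months; Hdc is lower in hetero-KO at both ages, as is the choroid plexus sum.

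Choroid plexus markers moved with Hdc. All 21 were lower in hetero-KO at 4 months (median −0.48) and 20 of 21 at 18 months (median −0.80), with summed levels of 192 and 157 at 4 months, then 229 and 176 at 18 months; the blood clotting gene F5 was lower by 0.52 and 1.07 and the bicarbonate transporter Slc4a5 by 0.68 and 0.80. Their part in the lower Hdc was not tested. Markers of the cells that make histamine were mostly dim. Of 13 mast cell markers, 7 were well above background on all arrays, and the tryptase Tpsab1 and the receptor Mrgprb1 on none; the protease Cpa3 was so on a single array, hetero-KO at 4 months (level 0.00716). The summed mast cell level was 2.43 and 2.96 at 4 months and 2.65 and 2.45 at 18 months. It includes Kit (levels 1.77 to 2.36), which neurons also make.

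Of 12 hypothalamus markers, 9 were measured on both arrays of each age; all 9 were higher in hetero-KO at 4 months (median 0.36) and 7 of 9 lower at 18 months (median −0.50), where Trh was lower by 1.12. Their summed level was 1.07 and 1.31 at 4 months and 1.48 and 1.20 at 18 months. Of 10 hypothalamus markers tested, 1 rose with age, against 1.46% of all genes. This was the hormone gene Avp (log2 1.81 ± 0.20 SE, limma adjusted p = 0.0442).

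The other marker lists are given once, as the median log2 difference between genotypes at 4 and at 18 months. It was −0.21 and −0.02 for 23 hippocampal principal neuron markers, 0.18 and −0.04 for 15 inhibitory neuron markers, −0.03 and −0.14 for neocortex markers, 0.02 and 0.05 for 12 astrocyte markers, 0.06 and 0.26 for 15 microglia markers, −0.26 and 0.64 for 10 border macrophage markers, and −0.23 and 0.02 for 12 endothelial markers. Of the microglia markers, 10 of 15 rose with age on the limma test, Tyrobp among them (log2 0.76 ± 0.06 SE, limma adjusted p = 0.0307). Of the hippocampal principal neuron markers, 2 rose and 1 fell, and 1 astrocyte marker rose. Of the inhibitory neuron markers 1 fell, as did 1 neocortex marker, and no border macrophage or endothelial marker passed. Over all genes, 1.46% rose and 0.643% fell.

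A further list held 10 genes of histamine's other receptor, storage, transport and breakdown. The fourth receptor gene Hrh4, known mainly from blood cells, read 0.122 (WT) and 0.111 (hetero-KO) at 4 months, then 0.122 and 0.113 at 18 months, with log2 differences of −0.14 and −0.11. None of the 10 was at least 2-fold apart between genotypes, near the shares over all genes (1.32% at 4 months and 1.14% at 18 months). At 4 months the hetero-KO level was higher for 3 and lower for 7 (median −0.06). At 18 months it was higher for 4 and lower for 6 (median −0.07). Slc22a2, an organic cation transporter, was lower by 0.79 at 4 months and higher by 0.96 at 18 months. Slc29a4, the plasma membrane monoamine transporter, which carries histamine into cells, was lower in hetero-KO at both ages, with levels of 6.82 and 5.35 at 4 months, then 7.57 and 5.32 at 18 months. Most choroid plexus markers were lower in hetero-KO as well, and their part in the lower Slc29a4 was not tested.

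Slc18a2, the vesicular monoamine transporter that loads histamine into vesicles, had levels between 0.339 and 0.402. The oxidases Maoa and Maob and the dehydrogenase Aldh2, which act on methylated histamine and its products, differed between genotypes by at most 0.29 on the log2 scale at either age. With age, 1 of the 10 rose, against 1.46% of all genes. This was Aoc1, the diamine oxidase that breaks histamine down outside the methylation route. Aoc1 had levels of 0.0184 and 0.0191 at 4 months, then 0.0577 and 0.0477 at 18 months. It was 2.80-fold higher at 18 months (log2 1.49 ± 0.18 SE, limma adjusted p = 0.0456), and both 18-month arrays lay above both 4-month arrays. The other 9 did not pass.

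Downstream of the receptors, 30 genes of G proteins, phospholipases, adenylyl cyclases and potassium channels were measured. Between genotypes 18 were higher and 12 lower in hetero-KO at each age (medians 0.02 and 0.01). None was 2-fold apart, near the shares over all genes (1.32% at 4 months and 1.14% at 18 months). Adcy5, the adenylyl cyclase that prevails in the striatum, was higher by 0.68 at 4 months and by 0.28 at 18 months. With age 3 of the 30 fell and none rose, against 0.643% and 1.46% of all genes. The phospholipase Plcb4 fell (log2 −0.97 ± 0.06 SE, limma adjusted p = 0.0211), as did the adenylyl cyclase Adcy8 (−0.84 ± 0.07 SE, limma adjusted p = 0.0342). The third was the potassium channel Kcnj9, a GIRK subunit opened by Gi-coupled receptors (−0.45 ± 0.04 SE, limma adjusted p = 0.0394). Kcnj9 had levels of 4.99 and 4.65 at 4 months, then 3.63 and 3.43 at 18 months. Thalamus and habenula markers were also lower at 18 months, and their part in these 3 falls was not tested.

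Receptors for dopamine, serotonin, noradrenaline and acetylcholine are listed beside the histamine receptors. Of 31 measured, the hetero-KO level was higher for 23 and lower for 8 at 4 months (median 0.16), and higher for 13 and lower for 18 at 18 months (median −0.06). At 4 months Drd1, itself one of the striatum markers, was higher by 1.56 and Htr1d by 1.16. At 18 months both were lower, by 0.44 and 0.33. Drd4 was lower by 0.45 at 4 months and 1.15 at 18 months. Both Htr1d (levels 0.0189 to 0.0622) and Drd4 (0.0118 to 0.0458) were dim. None of the 31 was at least 2-fold higher at both ages, near the share of 0.0511% over all genes. Hrh3 was picked for this contrast, so its standing apart from these receptors was set by that choice. The serotonin receptor Htr2a, as the only 1 of the 31, was at least 1.5-fold higher at both ages. Its levels were 0.102 and 0.173 at 4 months, then 0.143 and 0.259 at 18 months (log2 0.76 and 0.85). The share of all genes past 1.5-fold at both ages was not counted. With age, 1 of the 31 fell and none rose, against 0.643% and 1.46% of all genes. The adrenergic receptor Adra1b fell (log2 −1.72 ± 0.12 SE, limma adjusted p = 0.0241). The part of the thalamus and habenula markers, also lower at 18 months, in this fall was not tested.

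**Figure D5:**
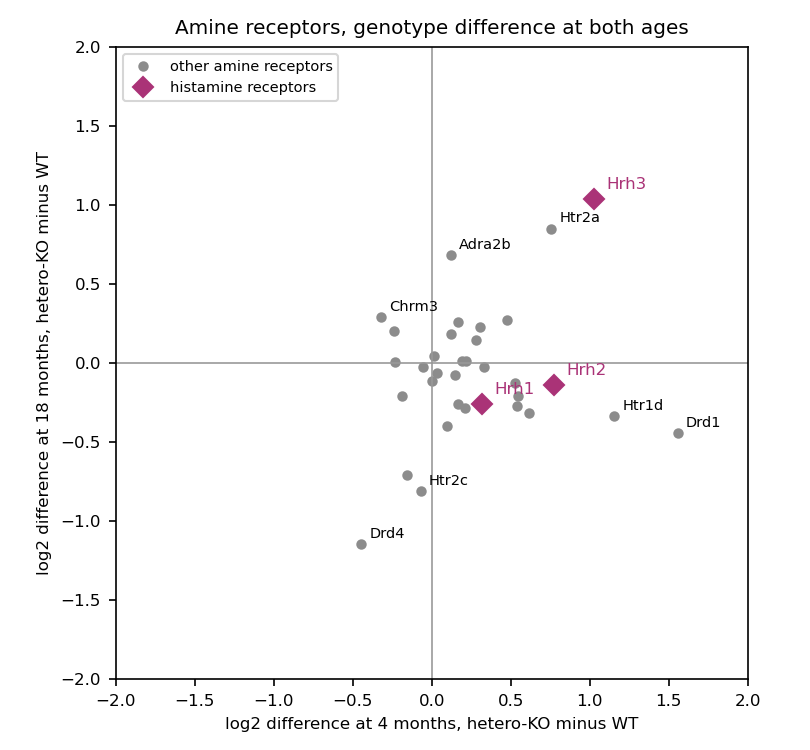
Log2 difference of hetero-KO minus WT at 4 months (horizontal) and 18 months (vertical) for the 3 histamine receptors (purple diamonds) and 31 other amine receptors (grey points). Hrh3, which was picked for this contrast, lies at 1.03 and 1.04. Drd1 and Htr1d are higher at 4 months and lower at 18 months, and Htr2a is the grey point nearest to Hrh3.

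Likeness to Hrh3 was measured as the root mean square distance between log2 levels on the 4 arrays after each gene's mean was removed, over 19175 genes. The nearest was Bnip5 (distance 0.03), with levels of 0.0244 (WT) and 0.0492 (hetero-KO) at 4 months, then 0.0191 and 0.0367 at 18 months. Next came Syndig1l (0.10), itself one of the striatum markers, with levels of 0.455, 1.05, 0.386 and 0.679 in the same order. Xlr4a (0.11), Asic4 (0.12), a member of the acid-sensing channel family, and Mxd3 (0.17) followed. Asic4 had levels of 1.43, 2.77, 1.06 and 1.81, and fell with age (log2 −0.52 ± 0.07 SE, limma adjusted p = 0.0485). The other histamine genes were farther off: Hrh2 ranked 1809th (0.49), Hnmt 2397th (0.51), Hrh1 4492nd (0.53) and Hdc 18630th (0.85).

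The genes next to Hrh3 had differences between genotypes smaller in size than that of its probe 2. Within 100 kb of that probe lie 13 probes of 8 other symbols, of which 12 probes of 7 symbols were measured on all arrays. Of these 12 probes, 0 were 2-fold apart at either age, near the shares over all genes (1.32% at 4 months and 1.14% at 18 months). Their log2 differences ran from −0.38 (the laminin gene Lama5) to 0.20 (Mtg2, a mitochondrial GTPase) at 4 months and from −0.31 (Lama5) to 0.23 (Lsm14b) at 18 months. Mtg2, whose nearest probe lies 13.7 kb away, had levels of 1.71 and 1.96 at 4 months, then 1.92 and 1.96 at 18 months by that probe. Psma7, a proteasome subunit 63.1 kb away, had levels between 12.2 and 14.1.

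Zbtb18 binds DNA at a site around the letters ACATCTG, so the windows at the start sites of the 5 genes were searched for them. RefSeq start-site windows of 300 bases (250 before the start, GRCm38.p6) were matched for all 5 genes by symbol, 9 windows in all. ACATCTG, on either strand, was in none of the 9 and in 4.43% of all 32851 windows. Its core CATCTG was in 1 of the 4 Hrh1 windows and in none of the windows of Hrh2, Hrh3, Hdc and Hnmt, against 17.2% of all windows. The wider E-box CANNTG, which includes the core, was in 72.3% of all windows and in those of Hrh3, Hdc and Hnmt, in 3 of 4 Hrh1 windows and in neither of the 2 of Hrh2. The 250 bases before the Hrh3 start (GRCm38.p6, chr2:180104408-180104657, minus strand) are shown because this is the gene with the difference, with the only CANNTG in capitals.
Hrh3 upstream: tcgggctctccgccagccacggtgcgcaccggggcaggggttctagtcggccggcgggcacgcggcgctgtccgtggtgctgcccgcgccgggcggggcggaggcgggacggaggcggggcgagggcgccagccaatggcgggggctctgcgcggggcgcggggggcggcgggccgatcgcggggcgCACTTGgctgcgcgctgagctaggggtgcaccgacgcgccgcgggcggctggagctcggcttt
The Hrh3 window was 79.0% G and C, more than in 98.6% of windows, with 47 CpG against a median of 7, whereas the Hdc window had 50.7% and 3 CpG and the Hnmt window 39.3% and 4.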

How the data were processed

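Each group's pool was read on 1 one-colour (Cy3) Agilent array. The authors' deposited scanner output is linear intensity per spot, background-subtracted by Agilent Feature Extraction (version 11.5.1.1, per the submitters' processing notes and the file headers) and not normalized between arrays. The authors' deposited table holds a linear ratio to the 75th percentile. The processed signal was divided by its array's 75th percentile before taking log2. A probe counted as measured when 50% or more of its spots passed the scanner's background test. A gene took its probe with the highest mean level. RefSeq accessions updated symbols (32994 probes matched, 8 of the 10 here). The members and lists were chosen with earlier results of these data known. Age was tested with limma 3.58.1 (R 4.3.3), an additive model with eBayes and a variance trend, on genes measured on at least 2 arrays. The fit was also run on made data with independent noise around each gene's mean. Those data held no genotype, sex or tissue difference, so that run cannot show whether the age calls hold for these pools. Pairs of arrays were described by fold. Genes named are all members, up to 2 with the largest differences per list and direction, those past the age test, the 5 most like Hrh3, its neighbours, and tissue checks; 1 gene this rule names is not reported here. All 4 arrays were on 1 slide.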

Additional observations from a re-analysis of the deposited data

Results flagged for a closer look

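The genotype difference of Hrh1 probe 2 pointed in opposite directions at the 2 ages, each time by more than the spot error: hetero-KO was higher by 0.32 at 4 months and lower by 0.26 at 18 months on the log2 scale. The difference at 18 minus that at 4 months was −0.58. In the 18-month columns of the authors' deposited table, hetero-KO was higher by 0.51, so the sign did not change there. Each group holds 1 array, and this difference was not tested.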

How the results depend on the processing

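The Hrh3 genotype difference kept its direction at each age under those of the 5 alternatives that start from the scanner files. The fifth is the authors' deposited table, whose 4-month columns are the same arrays and so no separate check. At 4 months the Hrh3 difference was 0.82 with the mean of both probes and 1.002 to 1.031 otherwise. At 18 months it was 0.86 to 1.04 from the scanner files. In the deposited table it was 0.16 at 18 months, below the spot error of 0.20 on the scanner arrays. The Hrh3 age difference was −0.45 to −0.38 from the scanner files under 9 alternatives, of which 5 kept the call (limma adjusted p = 0.0268 to 0.0480) and 4 lost it: −0.42 with the mean of probes (0.117), and −0.38 each with no filter on dim probes (0.146), no variance trend (0.319) and genotype left out (0.720). In the deposited table, whose 18-month arrays are unknown, the age difference was 0.95 for Hrh3 (adjusted p = 0.0250), 2.49 for Hrh1 and −2.14 for Hdc, each opposite to the scanner files. The cause was not tested.

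The number of genes at least 2-fold apart at 4 months, at 18 months, with age in WT and with age in hetero-KO (376, 314, 451 and 606) was 97, 66, 133 and 208 with normexp background correction, and at a fold of 1.5 it was 1280, 1312, 1489 and 1858. In the deposited table the age counts were 2496 and 2149. Genes that rose and fell with age (425 and 187) numbered 1133 and 301 with normexp, 53 and 116 with quantile normalization, 4605 and 5298 in the deposited table, 4 and 9 with the mean of probes, 0 and 0 without the filter or without the trend, and 54 and 67 with genotype left out; 651 rose among genes measured on all 4 arrays and 191 with every probe as a feature. At an unadjusted p under 0.05, limma gave 4877 and 2013. Genes that rose in hetero-KO over both ages (3) numbered 9 with normexp, 1 in the deposited table, 1 with the mean of probes, 0 without the filter, 8 on all 4 arrays, 0 without the trend and 1 with age left out. Genes that fell (0) numbered 5 with normexp, 7 in the deposited table and 2 on all 4 arrays.

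No paired analysis was possible because each group holds 1 array; for the same reason no array was left out: 3 arrays leave the additive model no residual degree of freedom. Signal near background limits the precision of Hrh2, Hrh1 probe 1 and the dim probes of Hdc and Hrh3.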
